A study of Homo sapiens with 2 samples.

Results

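The cholesterol synthesis genes described here are 8 genes, chosen by name among the 33538 gene rows of a single-cell count table: HMGCS1, MVD, IDI1, FDPS, FDFT1, SQLE, SC5D and INSIG1. All 8 were detected in SH-SY5Y, a human neuroblastoma cell line that is widely used as a model of neuron-like cells. The cells were untreated, were grown in a medium with fetal bovine serum, and came from 2 flasks, SplitA and SplitB, into which a single culture had been divided. The flasks were marked with hashtag antibodies, each carrying a barcode that is counted next to the mRNA, and were then pooled into 1 droplet library. The labels give both hashtags the same split name and disagree on the confluence at harvest, so SplitA (Hashtag-1) and SplitB (Hashtag-2) are named from the study's own account, and no difference in treatment between them is stated. A cell was given to a flask where 1 hashtag count was at least 3 times the other and the other stayed under a fixed ceiling, and it was kept where at least 1000 genes had a unique molecular identifier (UMI, the tag of 1 captured mRNA molecule). This left 899 SplitA cells with 5852780 UMIs and 1195 SplitB cells with 8066440 UMIs, at a median of 6063 and 6346 UMIs per cell.

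With 1 flask against 1 flask and cells that are not replicates, no test was possible between SplitA and SplitB. Levels are given as UMIs per 1000000 UMIs of all genes (CPM), with 95% exact Poisson intervals, shares of cells have exact binomial intervals, and all intervals cover counting error only. Of the markers that define adrenergic neuroblastoma cells, 8 of 10 had a UMI in 10% or more of the cells of either flask, with TH (9 and 9 UMIs) near 0. Of 15 markers of blood, endothelial, fibroblast, epithelial and liver cells, 10 were at 0, and the 15 summed to 6.15 CPM in SplitA and 7.93 CPM in SplitB. Since no cell type that should lack the 8 genes was in this culture, the UMIs that free RNA adds to each cell could not be measured.

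Cells make cholesterol from acetyl-CoA through the mevalonate pathway, whose isoprenoid intermediates also feed protein prenylation and the making of ubiquinone and dolichol. When sterols in the endoplasmic reticulum are scarce, SCAP carries the SREBP transcription factors to the Golgi, where they are cut and released to the nucleus to switch on nearly all genes of the pathway; when sterols are plentiful, the INSIG proteins hold SCAP back. Because of this shared control, the genes are often read as one program, and neurons depend on it during growth, since cholesterol bound to lipoproteins does not enter the brain from blood.

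Promoter stretches are shown first, because elements near the start of these genes are where a shared program would be read. RefSeq promoters on GRCh38.p14 (from 250 bases before the start of a transcript to 50 after it) were at hand for 6 of the 8 members, with 10 starts; FDFT1 and SQLE had no entry. Each stretch below reads 5′ to 3′ on the strand of the gene and ends before 1 start and before any exon GENCODE gives the gene. The IDI1 stretch lies after another RefSeq start of IDI1, whose window is chr10:1056655-1056954. Capitals mark matches on either strand to CCAAT, the box bound by NF-Y, which reads ATTGG on the other strand. They also mark the E-box CACGTG and CACNCCAC (GTGGNGTG), the core of a sterol regulatory element.
HMGCS1, chr5:43313513-43313612, minus strand: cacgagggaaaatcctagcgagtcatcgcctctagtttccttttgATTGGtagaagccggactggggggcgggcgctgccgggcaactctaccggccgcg
MVD, chr16:88663162-88663261, minus strand: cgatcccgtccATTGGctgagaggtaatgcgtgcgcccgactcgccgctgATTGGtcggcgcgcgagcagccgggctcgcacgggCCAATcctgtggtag
IDI1, chr10:1049225-1049344, minus strand: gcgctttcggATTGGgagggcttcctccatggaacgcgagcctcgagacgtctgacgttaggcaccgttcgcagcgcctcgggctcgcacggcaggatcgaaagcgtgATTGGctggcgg
FDPS, chr1:155308644-155308743, plus strand: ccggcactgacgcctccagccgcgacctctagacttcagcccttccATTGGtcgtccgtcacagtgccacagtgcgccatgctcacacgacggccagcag
SC5D, chr11:121292581-121292680, plus strand: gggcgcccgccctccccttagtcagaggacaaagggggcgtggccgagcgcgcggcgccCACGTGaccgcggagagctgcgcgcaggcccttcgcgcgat
INSIG1, chr7:155297658-155297775, plus strand: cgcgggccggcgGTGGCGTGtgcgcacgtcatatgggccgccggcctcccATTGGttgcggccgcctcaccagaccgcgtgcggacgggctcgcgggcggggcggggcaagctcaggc
Starts of one gene can overlap and hold the same site, so matches were counted by gene, and some lie outside the stretches shown. A CCAAT match stood in at least 1 promoter window of all 6 genes, against 39.7% of the 27305 genes in the table. The backgrounds here hold every gene with a promoter entry, detected in these cells or not. No background of detected genes was made, so the shares are not from genes like the members. The core of the sterol element was found in 3 of the 6 (IDI1, SC5D and INSIG1), against 7.05% of genes; in IDI1 and SC5D it lies after another start of the gene and is not shown. The E-box was found in 2 (SC5D and INSIG1), against 8.77%. The longer form of the sterol element, TCACNCCAC (GTGGNGTGA), which contains the core, was in none of the 6 and in 1.39% of genes. A gene with more starts has more windows in which to match. Counted by start, CCAAT stood in 8 of 10 windows, against 34.6% of 35116 windows. The core stood in 4 of 10 against 5.87%, the E-box in 3 against 7.26% and the longer form in 0 against 1.13%. A match is a run of letters in this window and was not tied to binding in these cells. Only these letters were searched, so a sterol element spelled otherwise was neither counted nor marked.

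The 8 members covered a wide range of levels, with FDPS far above the rest and HMGCS1 at the bottom. FDPS, which joins isoprene units into farnesyl pyrophosphate, the branch point of the pathway, had 682 UMIs in SplitA (117 CPM, interval 108 to 126) and 877 in SplitB (109 CPM, 102 to 116), and a UMI in 50.2% and 48.5% of the cells. FDFT1, or squalene synthase, which commits farnesyl pyrophosphate to sterols, had 239 UMIs (40.8 CPM) in SplitA and 332 (41.2 CPM) in SplitB. SQLE, or squalene epoxidase, which catalyses the first oxygenation and is a rate-limiting step, had 239 UMIs (40.8 CPM) and 308 (38.2 CPM). FDFT1 and SQLE were each found in between 21.5% and 23.1% of the cells of a flask, and their intervals overlapped in both flasks.

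IDI1, which converts isopentenyl to dimethylallyl pyrophosphate, followed with 138 UMIs (23.6 CPM) in SplitA and 199 (24.7 CPM) in SplitB, and a UMI in 14.0% and 14.9% of the cells. The remaining 4 members were each found in under 10% of the cells of both flasks. SC5D, a desaturase near the end of the pathway, had 66 UMIs (11.3 CPM) and 102 (12.6 CPM). INSIG1, the sterol-sensitive brake on SCAP, had 56 UMIs (9.57 CPM) and 84 (10.4 CPM). MVD, which decarboxylates mevalonate pyrophosphate, had 54 UMIs (9.23 CPM) and 80 (9.92 CPM). HMGCS1, the synthase that makes HMG-CoA, had 48 UMIs (8.20 CPM, interval 6.05 to 10.9) and 60 (7.44 CPM, 5.68 to 9.57). In this 3′ assay a transcript is counted once whatever its length, so levels of different genes were compared without dividing by length.

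Apart from the tie of FDFT1 and SQLE in SplitA, the order of the 8 levels was the same in both flasks. Over both flasks, the intervals of FDPS (107 to 118 CPM), of the FDFT1 and SQLE pair (36.1 to 44.5 CPM) and of IDI1 (21.7 to 26.9 CPM) stood apart from each other and from the lower 4. Those 4 lay between 7.76 and 12.1 CPM, and neighbours in their order overlapped in their intervals; HMGCS1 (6.36 to 9.37 CPM) and SC5D (10.3 to 14.0 CPM) at the ends of this group did not overlap. GENCODE places HMGCS1 at chr5:43287470-43313512, MVD at chr16:88651935-88663161, IDI1 at chr10:1039152-1049119, FDPS at chr1:155308748-155320666, FDFT1 at chr8:11795573-11839395, SQLE at chr8:124998497-125022283, SC5D at chr11:121292681-121313410 and INSIG1 at chr7:155297776-155310235 on GRCh38. FDPS has 8 annotated pseudogenes named after it and IDI1 has 3, so the counts of both are uncertain by what the counting assigned to, or dropped for, these near copies. No other annotated gene overlapped a member on the same strand; genes on the opposite strand overlapped HMGCS1, IDI1, FDPS and FDFT1.

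**Figure D1:**
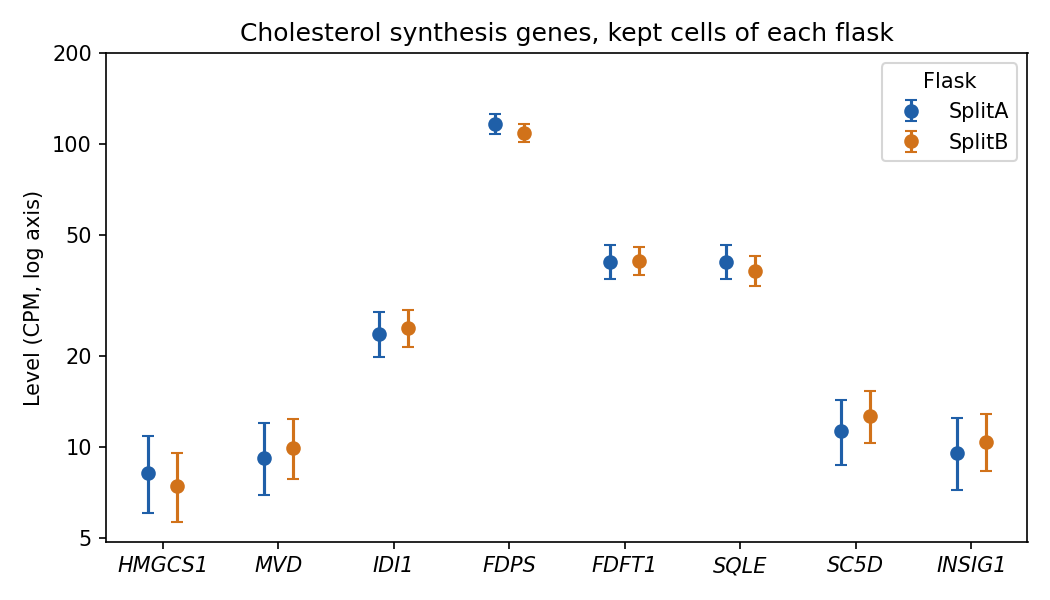
Level of each member in CPM (log axis) in the kept cells of SplitA (blue) and SplitB (orange), ordered along the pathway with the regulator INSIG1 last; points are the levels and bars 95% exact Poisson intervals, which cover counting error only. FDPS lies near 110 CPM in both flasks (117 and 109), and HMGCS1, MVD, SC5D and INSIG1 lie between 7.44 and 12.6 CPM.

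Single cells held few molecules of the pathway. The 8 members summed to 1522 UMIs, or 260.0 CPM (247 to 273), in SplitA and to 2042 UMIs, or 253 CPM (242 to 264), in SplitB. FDPS held 682 of the 1522 and 877 of the 2042, so sums and shares of member UMIs lean most on this gene. A kept cell had 1.70 ± 1.59 (SD over 2094 cells) member UMIs, with a median of 1 and a highest value of 15. In 483 cells (23.1%) no member was seen, 820 cells showed 1 of the 8, 497 showed 2, 216 showed 3 and 78 showed 4 to 6, and no cell showed 7 or 8. FDPS reached 6 UMIs in a SplitA cell and 7 in a SplitB cell, FDFT1 reached 4, and the other members did not exceed 3.

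Between the flasks, none of the 8 members reached the size limit of 0.25 on the log2 scale, against 9.38% of the 5626 genes above the detection limit (a UMI in 10% or more of the cells of either flask; 4.78% higher in SplitB and 4.60% higher in SplitA) and 40.9% of all genes with a UMI in both flasks. The summed members differed by a log2 ratio of -0.04 (SplitB over SplitA, interval -0.14 to 0.06). FDPS had a log2 ratio of -0.10 (-0.25 to 0.05), SQLE of -0.10 (-0.34 to 0.15), FDFT1 of 0.01 (-0.23 to 0.26) and IDI1 of 0.07 (-0.26 to 0.39). Among the rarer members the ratios ran from -0.14 in HMGCS1 (-0.71 to 0.44) to 0.17 in SC5D (-0.30 to 0.63), with MVD at 0.10 and INSIG1 at 0.12. All 8 intervals held 0, and those of IDI1 and the 4 rarer members were wide enough to hold differences past the size limit in both directions. Those of SQLE and FDFT1 held such differences in 1 direction. Of the 7185 genes with as many UMIs as the members (108 to 1559), 17.6% passed the limit.

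**Figure D2:**
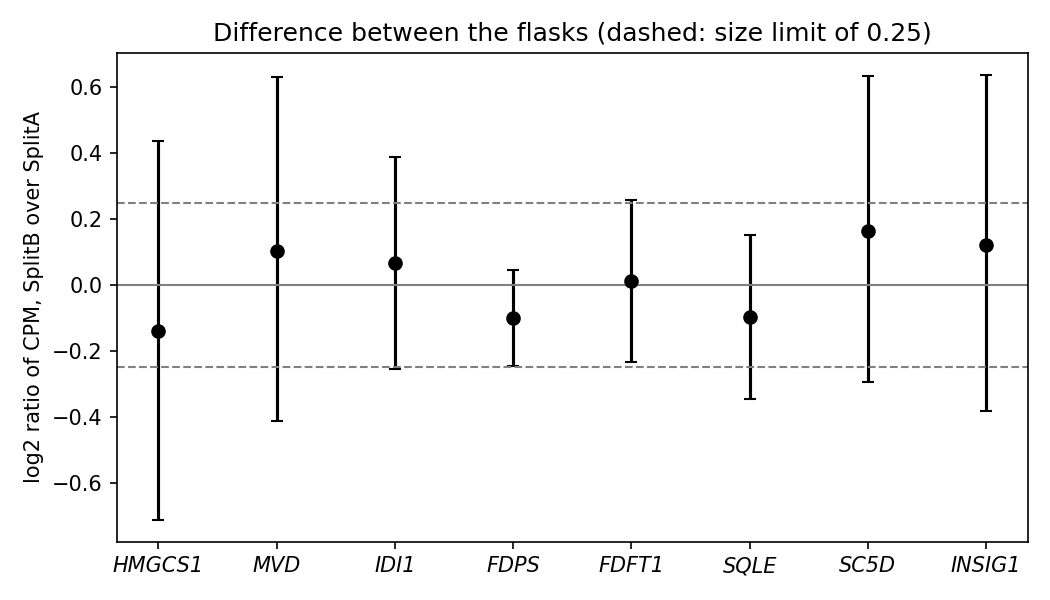
Log2 ratio of CPM, SplitB over SplitA, for each member; points are the ratios, bars the 95% conditional binomial intervals of a ratio of 2 counts, and dashed lines the size limit of 0.25. All 8 points lie between -0.14 and 0.17, inside the dashed lines.

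The sterol sensors and regulators SREBF1, SREBF2, SCAP and INSIG2 lay between 11.6 CPM (INSIG2) and 23.0 CPM (SCAP) over both flasks. This range ran from the level of the rarer members to that of IDI1. SREBF2, which encodes the SREBP that favours cholesterol genes, had 107 UMIs (18.3 CPM) in SplitA and 111 (13.8 CPM) in SplitB. Its log2 ratio was -0.41 (-0.81 to -0.01). A UMI of SREBF2 was found in 10.9% of SplitA cells and 8.62% of SplitB cells. It was therefore above the detection limit only through the flask where it was higher. With no detection limit, 3 of the 8 control genes passed the size limit, against 40.9% of all genes with a UMI in both flasks. SREBF1, which encodes the SREBP that favours fatty acid genes, had 15.04 and 15.9 CPM, and SCAP had 22.6 and 23.3 CPM. INSIG2, which encodes the other INSIG protein, had 12.99 and 10.7 CPM.

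Whether the members moved as one program was read from their correlation across cells. Of the 28 pairs of members, 0 reached a Pearson r of 0.1 over the 2094 cells (log-normalized counts, centred by flask), against 0.901% of all pairs of the 5626 genes, and the median r of the 28 was 0.014 (0.005 in SplitA and 0.020 in SplitB), against 0.005 over all gene pairs (0.005 in each flask). All 5626 genes are above the detection limit, and 4 members are not. The 6 pairs of the other 4 members had a median r of 0.034 (0.051 in SplitA and 0.023 in SplitB). Of these 6, 5 were above 0 and 0 reached 0.1. The 28 values ran from -0.026 (HMGCS1 with INSIG1, seen together in 3 cells) to 0.059 (FDPS with SC5D, together in 98 cells), and 20 of 28 were above 0 where 57.7% of all pairs were. IDI1 with HMGCS1 (0.058, 29 cells) and IDI1 with FDPS (0.058, 171 cells) came next. FDFT1 and SQLE, which act one after the other, had an r of -0.013 with 114 shared cells. These cells share a library and differ in depth, and values this small in sparse counts are no finding. In the same cells, 35 of 55 pairs of 11 endoplasmic reticulum chaperones reached 0.1 (median 0.136), as did 27 of 105 pairs of 15 glycolysis genes (median 0.061), genes that are mostly more abundant.

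**Figure D3:**
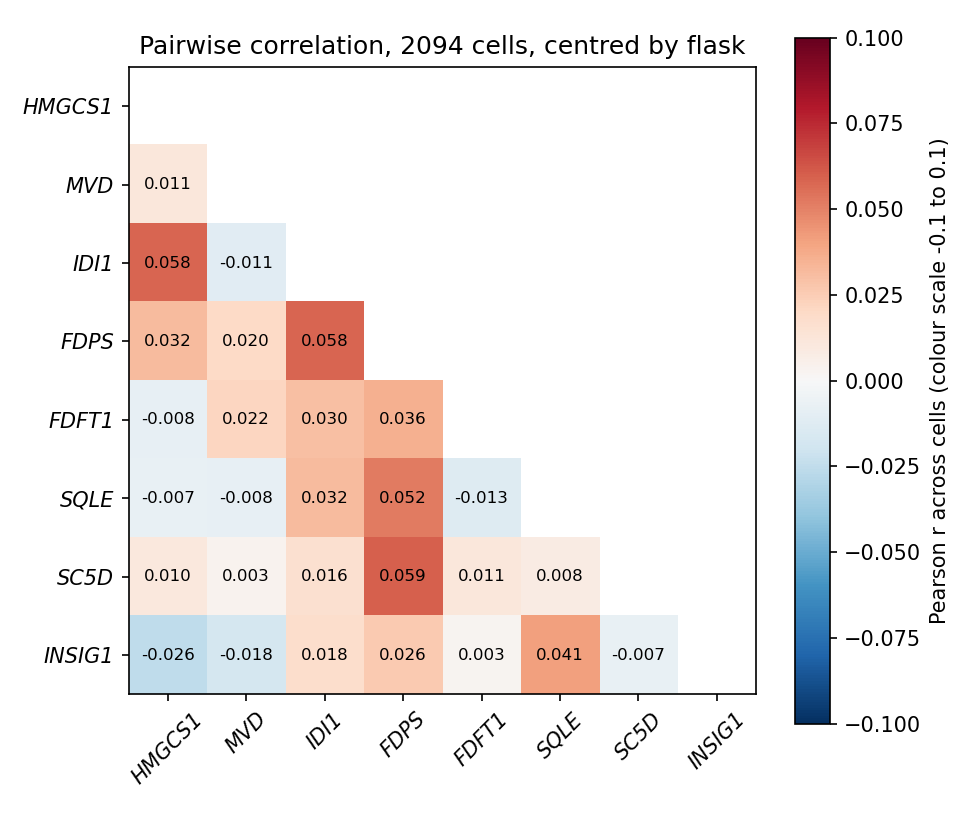
Pearson r across 2094 cells for each of the 28 pairs of members, on log-normalized counts centred by flask; colours run from -0.1 (blue) to 0.1 (red) and the value is printed in each square. The warmest squares are FDPS with SC5D (0.059) and IDI1 with HMGCS1 and FDPS (both 0.058), and the coldest is HMGCS1 with INSIG1 (-0.026).

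Each member was also set against the mean of the other 7. Every other gene was set against the mean of all 8, so the ranks and shares here compare scores that are not quite alike. FDPS had the highest r, 0.129 in SplitA and 0.086 in SplitB, and stood at rank 181 of 5626 genes. IDI1 had 0.102 and 0.060 (rank 444), SQLE 0.041 and 0.048 (rank 1156), and FDFT1 0.033 and 0.035 (rank 1576). The 4 rarer members lay between 0.001 and 0.073. None of the 8 reached 0.1 in both flasks, against 2.44% of the 5626 genes. The median over both flasks was 0.040 for the members, 0.061 for the 4 members above the detection limit and 0.011 for all genes. In the 1920 cells with a mitochondrial share under 15%, FDPS had 0.082, IDI1 0.059 and FDFT1 -0.011.

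On the level scale, the cells of a flask were split into 4 groups of equal size by the share of UMIs of the other 7 members. For genes outside the members, the groups were made by the share of all 8 members. From the lowest to the highest group, FDPS was 1.37-fold higher in SplitA and 1.33-fold in SplitB, IDI1 1.66-fold and 1.26-fold, and HMGCS1 2.22-fold and 1.44-fold, the last resting on 6 against 12 and 10 against 14 UMIs. These 3 of 8 members were at least 25% higher in each flask, against 14.8% of the 5626 genes; of the 4 members above the detection limit, 2 did. SQLE had ratios of 1.16 and 1.10, and FDFT1 of 1.18 and 0.87. The lowest group by all 8 members was nearly the cells with none of their UMIs (204 of 225 cells in SplitA and 279 of 299 in SplitB). Without the cells above the 99th percentile of UMIs, 1 of 8 members was at least 25% higher in each flask. Cell-to-cell spread was set against counting noise alone, which gives 1: FDPS had 1.31 and 1.54, FDFT1 1.10 and 1.26, IDI1 1.09 and 1.07, HMGCS1 1.02 and 1.05, and SQLE 0.992 and 1.00, while the median gene had 1.07 in SplitA and 1.08 in SplitB.

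Further genes of the pathway and of sterol control were read from lists chosen with earlier results of these data known. None of the 15 other synthesis genes, 8 control genes, 14 other SREBP targets, 9 genes of the isoprenoid branches and 12 genes of cholesterol handling reached an r of 0.1 with the 8 members in both flasks. By the same rule, 5 of 11 chaperones and 4 of 15 glycolysis genes above the detection limit did. The share was 2.44% of the 5626 genes, and 0 of 8 adrenergic markers above the limit. These counts rest on all 2094 kept cells. Among the 1920 cells with a mitochondrial share under 15%, 0.402% of genes above the limit reached 0.1 in each flask. The lists were not recounted there. Of the 15 other synthesis genes, 8 were above the detection limit, and 4 of those 8 (among them ACAT2, LBR and EBP) were at least 25% higher in the highest group of cells in each flask, against the 14.8% of all genes above the limit. Of the other lists, 3 of 8 SREBP targets above the limit were, 0 of 4 control genes, 0 of 3 genes of the isoprenoid branches, 0 of 3 genes of handling, 6 of 15 glycolysis genes and 6 of 11 chaperones. ACAT2, which condenses acetyl-CoA at the head of the pathway, had an r of 0.122 in SplitA and 0.093 in SplitB and ratios of 1.99 and 1.53. SCD, the stearoyl-CoA desaturase and a target of SREBP, had 0.108 and 0.088 and ratios of 1.91 and 1.64. PMVK, which phosphorylates mevalonate phosphate and at 134 CPM was above FDPS in level, had -0.010 and -0.052. The regulators SREBF2 (-0.009 and 0.015), SCAP (-0.011 and 0.011), INSIG2 (-0.033 and 0.027) and SREBF1 (0.041 and 0.038) all stayed under 0.1. ACAT2, SCD, LBR, PMVK and EBP were picked after their values were seen.

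By cell cycle phase, the summed members were higher in S and in G2M cells than in G1 cells of both flasks. In SplitA they stood at 215 CPM in 369 G1 cells, 301 CPM in 276 S cells and 279.8 CPM in 254 G2M cells, and in SplitB at 212, 275 and 290.5 CPM in 505, 348 and 342 cells. The log2 ratio of S over G1 was 0.48 (0.30 to 0.66) in SplitA and 0.38 (0.22 to 0.53) in SplitB, and that of G2M over G1 was 0.38 (0.20 to 0.56) and 0.46 (0.31 to 0.61). FDPS made up the larger part of these differences. Its level went from 89.5 CPM in G1 to 146 in S and 124 in G2M in SplitA, and from 78.5 to 136 and 125 in SplitB. SQLE went from 35.3 CPM in G1 to 49.5 in G2M in SplitA and from 27.9 to 50.7 in SplitB, log2 ratios of 0.49 (0.04 to 0.94) and 0.86 (0.46 to 1.27). INSIG1 had log2 ratios of G2M over G1 of 0.94 and 0.57, with intervals that held 0, as did those of HMGCS1 and SC5D.

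By count, 5 of 8 members (HMGCS1, FDPS, SQLE, SC5D and INSIG1) were higher in G2M than in G1 by a log2 ratio of at least 0.25 in both flasks, against 29.3% of the 5626 genes and 31.0% of the genes with as many UMIs. For S over G1, 2 of 8 (FDPS and INSIG1) were, against 21.7% and 23.0%. MVD, IDI1 and FDFT1 had no common direction in the flasks for either phase. Cells with a mitochondrial share of at least 15% were more frequent among S cells (39 of 276 and 48 of 348) than among G1 cells (14 of 369 and 23 of 505), and G2M cells had more UMIs (median 7077.5 and 6969) than G1 cells (5830 and 6130). Without the cells of 15% or more, the ratio of S over G1 was 0.40 (0.20 to 0.59) in SplitA and 0.19 (0.02 to 0.36) in SplitB, and that of G2M over G1 was 0.35 and 0.43.

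**Figure D4:**
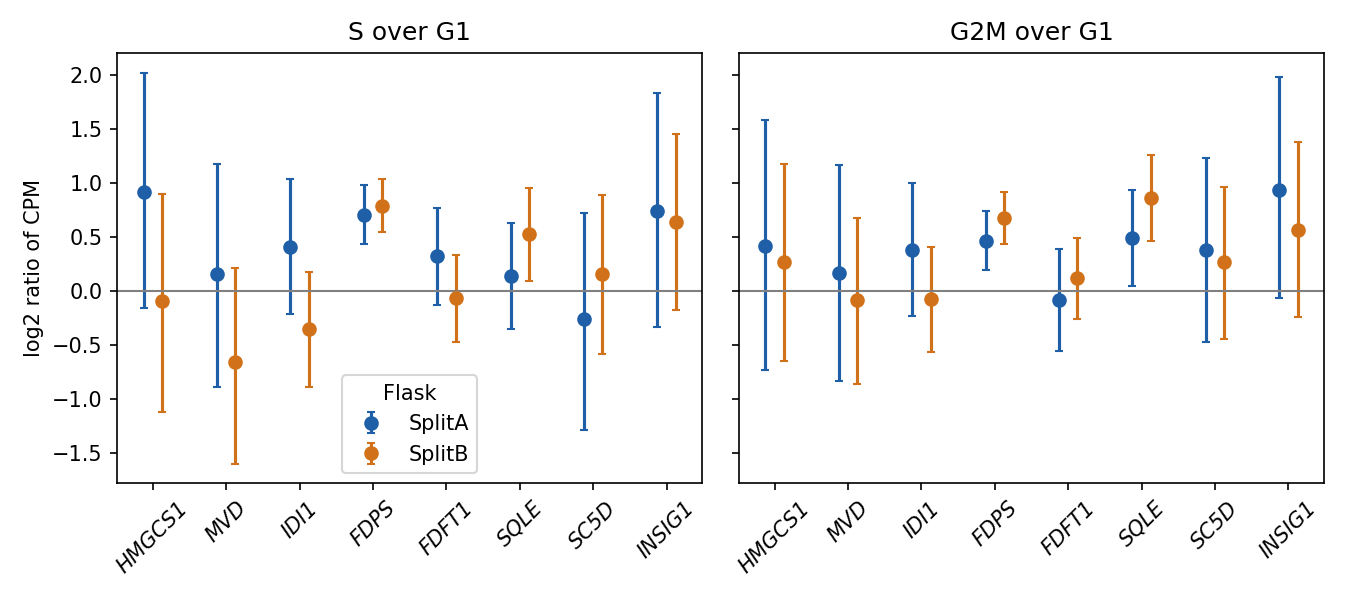
Log2 ratio of CPM of each member in S cells (left) and G2M cells (right) over G1 cells, in SplitA (blue) and SplitB (orange), with 95% conditional binomial intervals that cover counting error only. FDPS lies above 0 in both panels and both flasks (0.71 and 0.79 in S, 0.47 and 0.68 in G2M), SQLE does so most in G2M (0.49 and 0.86), and the intervals of the rarer members span 0.

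Levels also moved with the mitochondrial share of a cell's UMIs, in comparisons that were chosen after the data were seen. Among the kept cells, 174 had a mitochondrial share of 15% or more, and in these the summed members stood at 636 CPM in SplitA and 657 CPM in SplitB, against 246 and 235 CPM in the other 1920. FDPS stood at 372 and 412 CPM in the 174 cells against 107 and 95.3 CPM in the rest, and FDFT1 at 104 and 93.5 CPM against 38.5 and 38.8 CPM. SQLE had 56.5 and 52.6 CPM against 40.2 and 37.5 CPM. INSIG1 had 4 UMIs in the 174 cells, or 4.71 and 8.76 CPM against 9.75 and 10.5 CPM. The 174 cells had a median of 2770.5 UMIs against 6495, and ribosomal protein genes made up a median of 10.5% of their UMIs against 36.7%.

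The same difference was seen in the 690 cells of both flasks that the minimum of 1000 genes had left out, which had a median of 1406.5 UMIs and a median mitochondrial share of 35.0%. FDPS stood 2.96-fold (2.45 to 3.55) above its level in kept cells in SplitA and 3.30-fold (2.82 to 3.84) in SplitB, and FDFT1 2.48-fold (1.74 to 3.45) and 2.12-fold (1.55 to 2.87). HMGCS1 (2.06 and 2.82) and MVD (2.09 and 2.64) had ratios of the same size on 7 to 15 UMIs a flask. SQLE had 1.30 (0.80 to 2.01) and 1.10 (0.69 to 1.67), and INSIG1 1.01 (0.27 to 2.73) and 0.34 (0.04 to 1.251), both with intervals that held 1. So did the intervals of HMGCS1 (0.79 to 4.58) and MVD (0.86 to 4.42) in SplitA and of IDI1 (0.74 to 2.07) and SC5D (0.74 to 2.84) in SplitB. In all, 5 of 8 members (HMGCS1, MVD, FDPS, FDFT1 and SC5D) were at least 1.5-fold higher in each flask, against 20.6% of the 5626 genes and 22.3% of the genes with as many UMIs. Of the 4 members above the detection limit, 2 were. The median gene had a ratio of 0.99 in SplitA and 0.97 in SplitB, and the median member 2.07 and 1.82. With mitochondrial and ribosomal protein genes left out of the totals, the summed members stood 2.30-fold and 2.36-fold higher. Glycolysis genes (12 of 17) and endoplasmic reticulum chaperones (10 of 14) also reached 1.5-fold in each flask, as did 6 of 15 other synthesis genes, 3 of 12 genes of cholesterol handling, 2 of 8 control genes, 2 of 14 other SREBP targets and 0 of 9 genes of the isoprenoid branches. Above the detection limit, 12 of 15 glycolysis genes, 8 of 11 chaperones and 3 of 8 other synthesis genes did. The counts there were 0 of 3 for handling, 1 of 4 for control, 2 of 8 for targets and 0 of 3 for branches. Per cell the members were fewer in the 690 cells, 0.859 UMIs against 1.70 in kept cells. What sets the level apart in these cells was not tested.

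**Figure D5:**
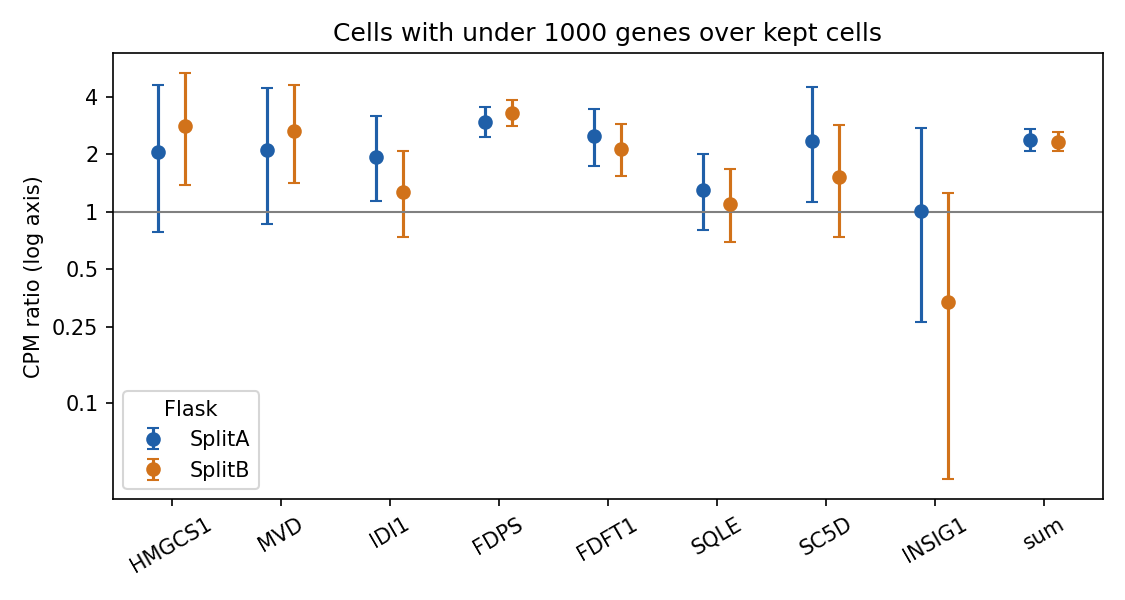
Ratio of CPM (log axis) of each member, and of their sum, in cells with under 1000 genes over kept cells of SplitA (blue) and SplitB (orange), with 95% conditional binomial intervals that cover counting error only. FDPS has the narrowest intervals of the 8 (2.96 and 3.30), SQLE lies near 1 (1.30 and 1.10), INSIG1 lies at 1.01 and 0.34, and the sum at 2.37 and 2.33.

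Of the genes outside the cholesterol lists, those most like the mean of the 8 members across the 2094 cells were HSP90AA1 (r 0.272), TUBA1B (0.265), ACTB (0.228), TUBB4B (0.225), MT-ND2 (0.225), TUBA1A (0.222), TUBB (0.201), MT-CO3 (0.200), MT-ATP6 (0.197) and CCT5 (0.193). They encode a cytosolic chaperone, tubulins and actin, a subunit of the chaperonin that folds these, and mitochondrial respiratory proteins. The lowest were the ribosomal protein genes RPL13A (-0.293), RPS14 (-0.285), RPS15A (-0.284), RPS6 (-0.277) and RPL34 (-0.277). FDPS was seen in 49.2% of the kept cells and each other member in 22.9% or less. It weighs most in the mean of the 8, and r values without FDPS were not computed. The mean of the members had an r of 0.239 with the mitochondrial share in each flask and of -0.312 and -0.297 with the ribosomal share, which share the cell's UMI total with the levels. In the 1920 cells under 15% mitochondrial share, MT-ND2 had an r of 0.041, MT-CO3 of 0.006 and TUBA1A of 0.072, while TUBA1B had 0.179 and HSP90AA1 0.151. There RPL13A had -0.186, and the share of all genes that reached 0.1 in each flask was 0.402%.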

How the data were processed

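SH-SY5Y cells of 2 flasks were hashed with antibodies and sequenced as 1 droplet library, with the hashtag library read next to it. According to the methods of the study and the submitters' processing notes, the authors aligned reads to GRCh38 with STAR 2.7 and made gene counts per cell with Cell Ranger 4.0.0; the gene annotation is not given in the sources used here. The deposited values are raw UMI counts of 33538 gene rows and 2 hashtag rows in 2879 cells, with no repeated barcode. Singlets were 1179 SplitA and 1605 SplitB cells, 95 cells were multiplets by their hashtags, and doublets within a flask were not called. Kept cells (at least 1000 genes) had 1801 to 27205 UMIs. Genes were matched to symbols by Ensembl identifier, and positions are from GENCODE on GRCh38.

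Summed counts were divided by all gene UMIs (CPM). Genes counted as different between flasks at an absolute log2 ratio of 0.25, as moving with the members at r of 0.1 in each flask, and as detected at a UMI in 10% of the cells of either flask (5626 genes). For correlations, counts were scaled to 10000 per cell and log-transformed, and phases came from Seurat 5.3.0 with its list cc.genes. R 4.3.3, edgeR 4.0.16 (TMM scaling only), numpy 2.4.6 and scipy 1.17.1 were used. The statistics were tested on simulated data, in which many more genes than the 8 members moved together. Whether a shared program in 8 genes as sparse as the members would be seen was not tested. Members and lists were chosen with earlier results of these data known. Named were all 8 members, SREBF1, SREBF2, SCAP, INSIG2, genes of the cholesterol lists at r of 0.1 in each flask (there were none), and the 10 genes highest and 5 lowest in r outside those lists; ACAT2, SCD, LBR, PMVK and EBP were named after their values were seen. Alternatives covered the hashtag limits, the minimum of genes, a quality filter, thinning to 2000 UMIs, totals, scaling, the measure of correlation, phases and each flask alone. Some genes are not reported here.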

Additional observations from a re-analysis of the deposited data

Results flagged for a closer look

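Cells outside the kept set, which are from the same SH-SY5Y flasks, also carried member UMIs. A level above 3 counts says little in cells of the same line. In the 690 flask cells with under 1000 genes the 8 members summed to 593 UMIs, or 601 CPM (554 to 651), where 3 counts would be 3.04 CPM, and 47.2% of these cells had no member UMI. In the 73 multiplets with at least 1000 genes they summed to 138 UMIs, or 238.8 CPM (200.6 to 282), where 3 counts would be 5.19 CPM. The multiplets lay near the kept cells (256 CPM), and the cells with few genes above them.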

How the results depend on the processing

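No paired analysis was possible because the labels give no replicate numbers and each flask is 1 sample. Summed members (260.0 CPM in SplitA, 253 in SplitB) stood at 284 and 276 CPM with a minimum of 300 genes, 246 and 235 with the quality filter (mitochondrial share under 15%, 1920 cells), 288 and 282 with every cell thinned to 2000 UMIs, and 286 and 279.5 without mitochondrial genes in the totals. Members past the size limit between flasks (0) were 1 with the quality filter (HMGCS1, -0.28) and 2 when thinned (HMGCS1, -0.50, and SC5D, -0.31). When thinned, SC5D, FDPS (0.05), IDI1 (-0.20) and FDFT1 (-0.10) changed sign, as did HMGCS1 (0.01) with the average difference that Seurat's FindMarkers reports. FDFT1 also changed sign at a hashtag ratio of 5 (-0.002) and at a minimum of 300 genes (-0.02). The median pair r (0.014) was 0.025 by Spearman and 0.005 to 0.020 with a flask left out. Members with an r of 0.1 in each flask (0) were 1 without mitochondrial genes, 1 with Pearson residuals, 2 within S cells, and 0 to 2 with a flask left out. The median ratio between the highest and lowest groups of cells (1.28) was 1.24 at a hashtag ratio of 5, 1.15 at 300 genes, 1.254 with the quality filter, 1.44 when thinned and 1.30 without mitochondrial genes; members at least 25% higher (3) were 1 at 300 genes, 1 without the cells over the 99th percentile of UMIs, and 4 to 5 with a flask left out. The median spread of the members (1.06) was 1.248 at 300 genes and 1.02 with the filter and when thinned. The ratio of S over G1 in SplitB (0.38) was 0.19 with the quality filter, an alternative added after the data were seen. Of the recomputed summary values, 67 were called unchanged and 27 were not. Levels and log2 ratios were called by their counting interval, and counts of members by a limit of 1.5 times. The median r, median group ratio and median spread have no counting interval, so the calls on them do not measure counting error. Leaving mitochondrial genes out of the totals raises the CPM of all other genes by calculation. The causes of the other changes were not tested. A gene near 10 CPM is under 1 UMI in most cells, so depth limits any r between the rarer members.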
